A study of Homo sapiens with 6 samples.

Results

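The SOSS complex (sensor of single-stranded DNA) was followed through its 4 genes, NABP1, NABP2, INTS3 and INIP, which were found by symbol among the 60589 genes of the expression table. All 4 passed the filter of a mean of at least 1 TPM (transcript abundance per length, scaled to the same total in each library). The complex was chosen with the siMAD2L1 against siControl values of these libraries in view, so the differences of the 4 members are given as a description and without a test. RNA came from SNU449, an established cell line from a human hepatocellular carcinoma. The siMAD2L1 group (n = 3) received an siRNA against MAD2L1, a spindle checkpoint protein, and the siControl group (n = 3) a control siRNA, both sampled on day 3 and grown in DMEM with fetal bovine serum. The treatment field reads siMAD2L1, siMAD2L2 and siMAD2L3 for siMAD2L1 replicates 1, 2 and 3, while all 3 titles name MAD2L1. Nothing says whether the replicates were separate cultures, so p-values measure only the spread between these libraries, which may be technical.

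SOSS binds single-stranded DNA and takes part in the response to double-strand breaks, where it helps ATM signalling and the resection of broken ends. NABP2 (also called hSSB1) and NABP1 (hSSB2) are paralogs that contact DNA through an OB fold, and each complex holds one or the other. INTS3 is the scaffold to which both bind, and is also a subunit of Integrator, which cleaves nascent RNA at small nuclear RNA genes and at paused polymerase. INIP is a small subunit that binds INTS3.

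NABP2 (ENSG00000139579) lies on the plus strand of chromosome 12 from 56222015 to 56229854 (GRCh38, GENCODE 29), and NABP1 (ENSG00000173559) on the plus strand of chromosome 2 from 191678068 to 191696659. The 250 bases before the RefSeq start (GRCh38.p14) are shown for these paralogs because they take the same place in the complex and NABP2 lay lower in siMAD2L1 than in siControl while NABP1 overlapped between the groups. Capitals mark 3 motifs, searched on both strands with no regard to overlap between them. The letters CCAAT are a box bound by NF-Y, and a match on the other strand reads in reverse complement here. The GC box, bound by the SP family, was searched as GGGCGG, and the core bound by ETS factors as CTTCCG. The NABP2 window is chr12:56224092-56224341, plus strand, which lies inside the annotated gene because other NABP2 transcripts start upstream. The NABP1 window is chr2:191677886-191678135, plus strand, and its last part also lies inside the annotated gene, which starts at 191678068.
NABP2: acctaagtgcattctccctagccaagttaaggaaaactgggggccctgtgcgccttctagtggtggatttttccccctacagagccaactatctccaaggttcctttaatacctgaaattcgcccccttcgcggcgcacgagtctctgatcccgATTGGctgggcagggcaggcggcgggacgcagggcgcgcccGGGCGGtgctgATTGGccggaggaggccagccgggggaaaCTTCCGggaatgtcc
NABP1: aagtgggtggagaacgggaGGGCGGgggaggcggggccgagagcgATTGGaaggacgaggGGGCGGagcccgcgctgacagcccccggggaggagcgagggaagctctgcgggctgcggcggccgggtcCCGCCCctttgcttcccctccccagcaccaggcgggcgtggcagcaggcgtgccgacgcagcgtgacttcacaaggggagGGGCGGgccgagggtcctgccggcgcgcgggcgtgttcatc
The NABP2 window held 2 matches to the CCAAT box, 1 to the GC box and 1 to the ETS core, and the NABP1 window 1, 4 and 0. Among 35116 RefSeq windows of this length, 32% held the first of these motifs, 42.6% the GC box and 16.5% the ETS core. The E-box, searched as CACGTG, matched neither window and 6.34% of all windows. The TATA box (TATAAA) matched neither, against 10.7% of all windows, and the CHR element, searched as TTTGAA, neither, against 13.3%. The GC content was 61.2% before NABP2 and 75.2% before NABP1, against a median of 58.0% over all windows. The INTS3 window, which is not printed, held 3 matches to the CCAAT box, 1 to the GC box and 2 to the ETS core. A match is a description of the letters and does not show binding.

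The knockdown was read first. MAD2L1 measured 4.47, 0.795 and 2.40 TPM in siMAD2L1 replicates 1, 2 and 3, against 14.5, 13.7 and 13.9 TPM in siControl, and fell by 2.22 on the log2(TPM + 1) scale (SE 0.357, limma adjusted p = 0.0105, between 0.0513 and 0.0531 without siControl replicate 3 or 1). An exact two-sided permutation test gave p = 0.1, and 3 libraries against 3 cannot give less. Mitochondrially encoded genes took 9.21% to 10.9% of the TPM in siMAD2L1 and 15.2% to 15.3% in siControl. Genes with a TPM above 0 numbered 22514 to 23630 in siMAD2L1 and 24056 to 24258 in siControl. The part of either in the values below was not tested. Of 6 hepatocyte markers TTR was at 0 throughout and the other 5 summed, with it, to 2.50 to 6.21 TPM in siMAD2L1 and 3.77 to 4.94 TPM in siControl, so these markers were nearly absent from a line labelled as liver tumour. The mesenchymal marker VIM stood between 10541 and 11152 TPM in siMAD2L1 and between 9128 and 9986 TPM in siControl. The mesenchymal markers FN1 and CDH2 overlapped between the groups. FN1 stood at 46.5 to 64.3 TPM in siMAD2L1 and 51.0 to 57.7 TPM in siControl. CDH2 stood at 28.1 to 36.4 TPM in siMAD2L1 and 31.6 to 35.9 TPM in siControl. The summed leukocyte and endothelial markers stayed at or below 3.22 TPM in every library. The number of reads per library is unknown, since TPM keeps no depth.

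NABP2, the more abundant DNA-binding subunit under control siRNA, measured 20.6, 23.7 and 23.4 TPM in siMAD2L1 replicates 1, 2 and 3, against 66.2, 67.4 and 65.0 TPM in siControl replicates 1, 2 and 3. Every siMAD2L1 library lay far below every siControl library, and within each group the libraries were close together. The means were 22.5 ± 1.68 TPM in siMAD2L1 and 66.2 ± 1.24 TPM in siControl (SD, n = 3 each), which puts siMAD2L1 at 34.1% of siControl. By library it stood at 31.1%, 35.7% and 35.3% of the siControl mean in siMAD2L1 replicates 1, 2 and 3, while MAD2L1 itself stood at 31.9%, 5.66% and 17.1%. The replicate that kept the most MAD2L1 mRNA was thus the one with the least NABP2 mRNA, among 3 libraries. The log2 difference was -1.52, and 0.358% of the 14790 genes tested had a lower one. The NABP2 and NABP1 rows are joined to assembled transcripts, and which of these enter each row is not stated, which bears on the level of NABP2 and on the ratio of the paralogs.

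NABP1, the paralog, measured 21.8, 17.3 and 19.2 TPM in siMAD2L1 replicates 1, 2 and 3, against 18.1, 18.4 and 17.2 TPM in siControl. The groups overlapped, with siMAD2L1 replicate 2 inside the siControl range and the other siMAD2L1 libraries above it. The means were 19.4 ± 2.24 TPM in siMAD2L1 and 17.9 ± 0.623 TPM in siControl (SD, n = 3 each; log2 difference 0.11), which differed by less than the SD of siMAD2L1.

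INTS3 (ENSG00000143624; plus strand of chromosome 1 from 153728067 to 153774808), the scaffold, measured 19.2, 19.8 and 20.1 TPM in siMAD2L1, against 23.9, 26.1 and 22.6 TPM in siControl. The groups did not overlap, but the gap between them was small. The means were 19.7 ± 0.449 TPM in siMAD2L1 and 24.2 ± 1.79 TPM in siControl (SD, n = 3 each), or 81.4% of siControl and a log2 difference of -0.28.

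INIP (ENSG00000148153; minus strand of chromosome 9 from 112683926 to 112718236) measured 10.99, 6.01 and 5.79 TPM in siMAD2L1 replicates 1, 2 and 3, against 11.2, 11.5 and 11.7 TPM in siControl. The siMAD2L1 libraries did not move together, since replicate 1 lay just under the lowest siControl library and replicates 2 and 3 near 6 TPM. The means were 7.59 ± 2.95 TPM in siMAD2L1 and 11.5 ± 0.242 TPM in siControl (SD, n = 3 each; log2 difference -0.59). Replicate 1 decided this value, for siMAD2L1 stood at 66.1% of siControl with it and at 51.3% without it, with log2 differences of -0.59 and -0.86, and replicate 1 alone gave -0.06.

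**Figure D1:**
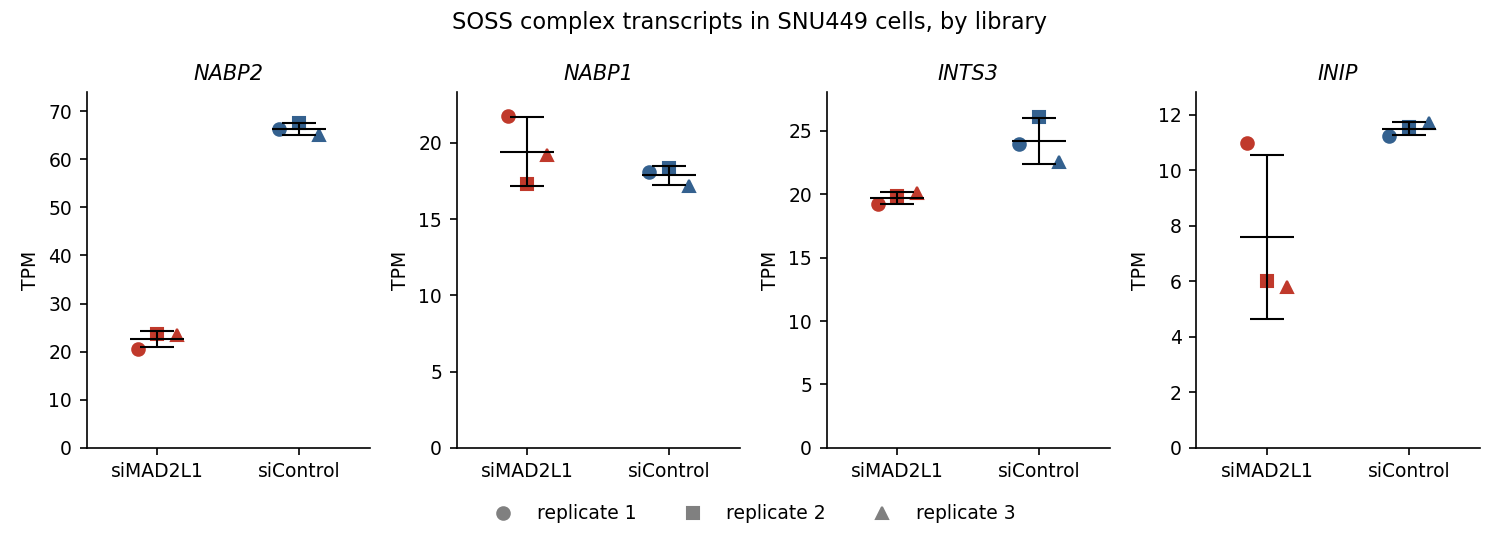
TPM of NABP2, NABP1, INTS3 and INIP in each library of siMAD2L1 and siControl; points are libraries, with the mean as a long line and bars of 1 SD (n = 3 each). NABP2 lies between 20.6 and 23.7 TPM in siMAD2L1 and between 65.0 and 67.4 TPM in siControl, NABP1 overlaps between the groups, and siMAD2L1 replicate 1 stands apart for INIP.

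In 3 of 4 members the groups did not overlap, as in 32.8% of all genes tested. In these 3 the siMAD2L1 libraries lay below the siControl libraries, and in 0 above. Over all genes tested, 21.5% lay below in this way and 11.3% above, and nothing is read from the comparison because the members were chosen on this contrast. The median of the members' log2 differences was -0.44, beside -0.08 for all genes tested. In bulk RNA, less mRNA per cell and fewer cells that express it cannot be told apart.

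The balance between the members differed between the groups. NABP1 made up 51.4%, 42.3% and 45.1% of the summed NABP1 and NABP2 TPM in siMAD2L1 replicates 1, 2 and 3, against 21.5%, 21.4% and 20.9% in siControl. In siMAD2L1 replicate 1, NABP1 was the more abundant paralog, and in the 5 other libraries NABP2 was. The mean share was 46.2% ± 4.67 in siMAD2L1 and 21.3% ± 0.305 in siControl (SD, n = 3 each). The summed TPM of both paralogs was 42.0 ± 0.874 in siMAD2L1 and 84.1 ± 1.84 in siControl. Per INTS3, the paralogs summed to a TPM ratio of 2.13 ± 0.0708 in siMAD2L1 and 3.48 ± 0.180 in siControl, so they exceeded the scaffold's mRNA in every library of both groups. INIP stood at 0.572, 0.303 and 0.288 per INTS3 in siMAD2L1 replicates 1, 2 and 3, against 0.469, 0.442 and 0.518 in siControl, so that replicate 1 lay above every siControl library and replicates 2 and 3 below.

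The order of the members by TPM, which is per length, was NABP2, INTS3, NABP1 and INIP in siControl, and no neighbours in that order overlapped between libraries. In siMAD2L1 the means gave the same order, but INTS3 (19.2 to 20.1 TPM) and NABP1 (17.3 to 21.8 TPM) overlapped, and NABP2 began at 20.6 TPM. INIP remained lowest in every library. Among the genes tested, the siControl mean of NABP2 lay at the 85.9 percentile, of INTS3 at 68.9, of NABP1 at 61.7 and of INIP at 51.4.

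**Figure D2:**
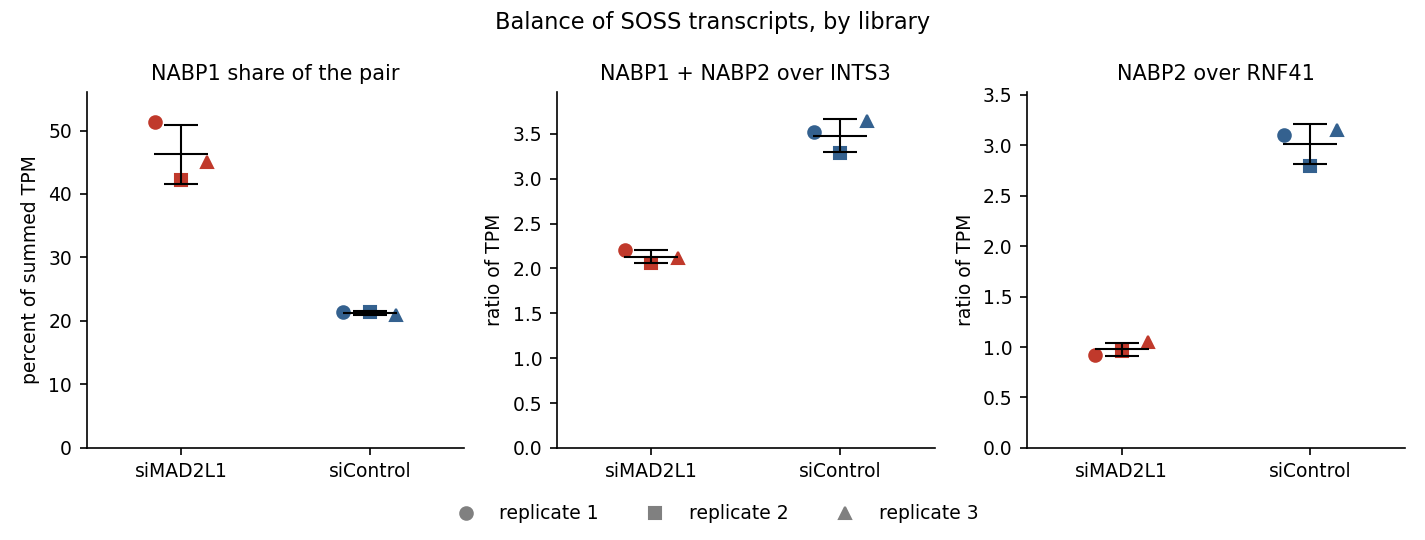
NABP1 as a percent of the summed NABP1 and NABP2 TPM, the TPM ratio of both paralogs to INTS3, and the TPM ratio of NABP2 to its divergent neighbour RNF41, by library, with the mean and bars of 1 SD (n = 3 each). The NABP1 share is 42.3% to 51.4% in siMAD2L1 and 20.9% to 21.5% in siControl, and both ratios are lower in each siMAD2L1 library than in any siControl library.

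The genes beside the members were read in the same libraries. RNF41, an E3 ubiquitin ligase gene, is transcribed away from NABP2 from a start 82 bases from the first annotated start of NABP2. RNF41 measured 22.4, 24.6 and 22.2 TPM in siMAD2L1, against 21.3, 24.2 and 20.6 TPM in siControl. These groups overlapped and the difference did not pass (log2 0.07, SE 0.107, limma adjusted p = 0.742), with log2 values between 0.02 and 0.13 over the alternatives that kept all libraries. NABP2 therefore stood at 0.978 ± 0.0657 per RNF41 in siMAD2L1 and at 3.02 ± 0.197 in siControl (SD, n = 3 each). SLC39A5, a zinc transporter gene 194 bases beyond the end of NABP2, was at 0 in every library except siControl replicate 1, at 0.337 TPM.

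INTS3 overlaps SLC27A3, an acyl-CoA synthetase family gene on the same strand, whose reads could be assigned to either gene. SLC27A3 measured 1.35, 1.74 and 1.76 TPM in siMAD2L1 and 2.36, 3.34 and 2.50 TPM in siControl (log2 -0.51, SE 0.204, limma adjusted p = 0.161). The antisense genes AL513523.4 and AL513523.3 within INTS3 were at 0 throughout. GATAD2B, the next gene after INTS3 (limma adjusted p = 0.606), and KIAA1958 (0.965) and SNX30 (0.471) on either side of INIP did not pass. SNX30 measured 7.50, 4.41 and 4.82 TPM in siMAD2L1 replicates 1, 2 and 3 and 7.05, 7.22 and 5.88 TPM in siControl, so its replicate 1 was also the highest siMAD2L1 library. CAVIN2, after NABP1, and NPR1, before INTS3, did not reach 0.2 TPM.

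Genes with the most similar profile were taken as those with the smallest root mean square distance of log2(TPM + 1) over the 6 libraries, each gene centred on its own mean. Genes without a symbol or with a clone-style symbol were left out of the ranking and of the counts within 0.1. For NABP2 they were TOX2 (distance 0.0900), SNORA11F (0.106), MAP2K6 (0.121), CACNA2D3 (0.132) and SMAD6 (0.134). Of the genes ranked, only TOX2 lay within 0.1. TOX2, a gene of the HMG-box TOX family, averaged 9.55 TPM in siMAD2L1 and 30.3 TPM in siControl, close to the proportion seen for NABP2. MAP2K6, a kinase that activates p38, averaged 1.66 and SMAD6, an inhibitor of BMP signalling, 3.04 TPM in siMAD2L1, against 6.88 and 8.72 TPM in siControl. CACNA2D3, a calcium channel subunit gene, averaged 8.37 TPM in siMAD2L1 and 22.6 TPM in siControl. SNORA11F was listed at 0 in siMAD2L1 and averaged only 2.22 TPM in siControl, so the size of its log2(TPM + 1) difference depends on the added 1.

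INIP was nearest to ZNF658 (distance 0.0487), AFG3L1P (0.0637), the mitotic checkpoint kinase gene TTK (0.0663), FRG1HP (0.0703) and FTX (0.0717), and 24 genes lay within 0.1. TTK averaged 2.93 TPM in siMAD2L1 and 4.40 TPM in siControl. INTS3 was nearest to SNRNP200 (0.0290), STIM1 (0.0322), VPS35L (0.0329), SF3B2 (0.0339) and ABCC3 (0.0340), and NABP1 to BRPF3 (0.0240), RAD54L2 (0.0273), KLHL12 (0.0293), RELL1 (0.0295) and ELOVL4 (0.0315). These last profiles are nearly flat, and 669 genes lay within 0.1 of INTS3 and 722 within 0.1 of NABP1. The count within a fixed distance depends on the size of the profile. As a root mean square, that size was 0.760 for NABP2, 0.398 for INIP, 0.154 for INTS3 and 0.109 for NABP1. The low counts for NABP2 and INIP therefore do not show a particular likeness.

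The other Integrator subunits were tested, since INTS3 belongs to that complex too. Of 14 tested, 3 fell, 0 rose and 11 did not pass an adjusted p of 0.05 in limma, where 6.23% of all genes tested fell and 3.55% rose. At an unadjusted p under 0.05 the counts were 3 lower and 0 higher, where 17.4% of all genes tested were lower and 8.9% higher. The list's median log2 difference was -0.22, beside -0.08 for all genes tested, and 11 of the 14 values were negative. INTS6L was listed at 0 in every library. The count that fell was 1 without siControl replicate 1 and 1 without siControl replicate 2.

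INTS10, which forms a module with INTS13, INTS14 and INTS15, had 13.8, 10.4 and 9.42 TPM in siMAD2L1, against 22.9, 25.7 and 25.8 TPM in siControl. It fell by 1.09 on the log2 scale (SE 0.150, limma adjusted p = 0.00623) and kept its call in each of the 6 fits that left out a library, the highest adjusted p being 0.0383. Its module partners did not pass, with log2 values of 0.14 for INTS13, 0.01 for INTS14 and 0.10 for INTS15, which the table lists as C7orf26. INTS9, which pairs with the endonuclease INTS11, had 8.12, 7.01 and 6.43 TPM in siMAD2L1, against 13.9, 13.985 and 12.2 TPM in siControl. It fell by 0.81 (SE 0.137, limma adjusted p = 0.0124), though the adjusted p was 0.0717 and 0.0576 without siControl replicate 1 or 2. INTS11 (-0.06) and INTS4 (-0.22), the other parts of the cleavage module, did not pass.

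INTS12, a small PHD-finger subunit, had 16.2, 12.5 and 13.7 TPM in siMAD2L1, against 19.3, 19.8 and 22.6 TPM in siControl. It fell by 0.51 (SE 0.131, limma adjusted p = 0.0483) but lost its call in 5 of the 6 fits that left out a library (highest adjusted p 0.170) and in 10 alternatives in all. The 14 subunits ranged from -1.09 to 0.14 on the log2 scale.

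**Figure D3:**
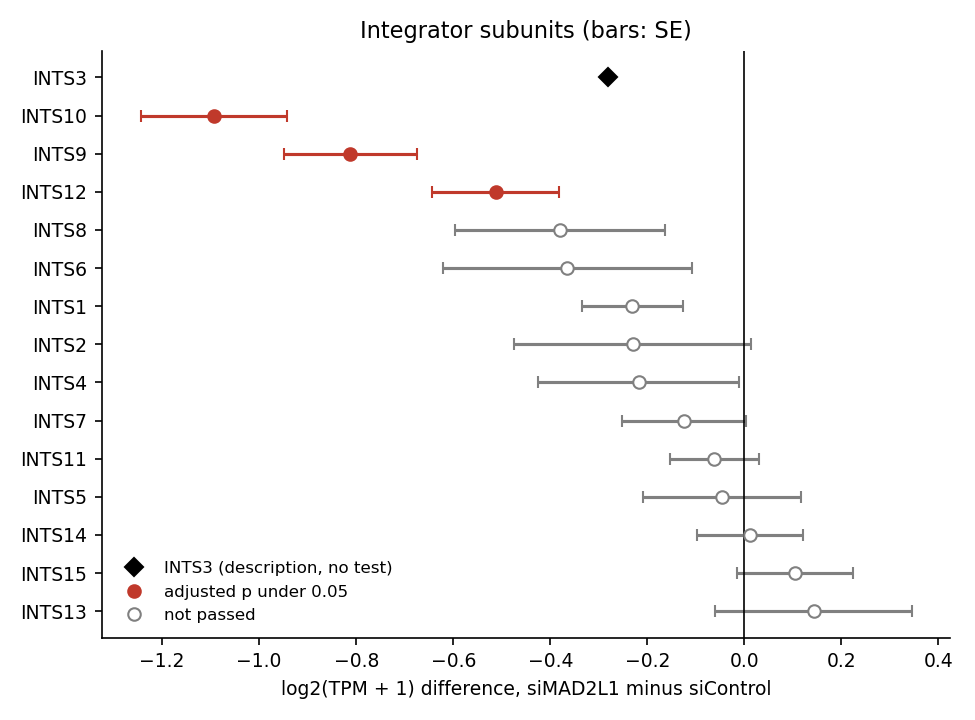
Log2(TPM + 1) difference, siMAD2L1 minus siControl, of the 14 other Integrator subunits tested, with bars of 1 SE from limma, and of INTS3 as a point without a test. INTS10, INTS9 and INTS12 (filled) fell at adjusted p under 0.05, and the other 11 (open) did not pass.

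Of 14 partners of Integrator at paused polymerase and at small nuclear RNA genes (phosphatase PP2A subunits, NELF, DSIF and SNAPc), 0 passed in limma, with 2 lower and 1 higher at an unadjusted p under 0.05 (17.4% and 8.9% of all genes tested). Their median log2 difference was 0.05, beside -0.08 for all genes tested, and 1 fell without siMAD2L1 replicate 1. The most abundant were PPP2R1A, the PP2A scaffold, at 370 ± 35.4 TPM in siMAD2L1 and 364 ± 25.4 TPM in siControl, and SUPT4H1, a DSIF subunit, at 155 ± 3.68 TPM in siMAD2L1 and 138 ± 19.9 TPM in siControl (SD, n = 3 each).

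Among 11 other genes of single-stranded DNA binding proteins or their complex partners, 0 passed in limma. At an unadjusted p under 0.05, 4 were lower and 1 higher (17.4% and 8.9% of all genes tested). The list's median was -0.25, beside -0.08 for all genes tested, and 1 fell without siMAD2L1 replicate 1. RPA, the main single-strand binding complex of the nucleus, had log2 values of -0.39 for RPA1 (limma adjusted p = 0.0664), 0.07 for RPA2 (0.708) and -0.20 for RPA3 (0.347). SSBP1, the mitochondrial single-strand binding protein, had 211 ± 12.1 TPM in siMAD2L1 and 252 ± 7.51 TPM in siControl (SD, n = 3 each). Its log2 difference was -0.25 (limma adjusted p = 0.0654). Among the alternatives, SSBP1 passed only in a rescaling of TPM that drops mitochondrially encoded and the 20 highest genes (limma adjusted p = 0.0374). Its limma adjusted p was 0.309 once the dependence on length was taken out, and 0.236 when libraries were scaled by upper quartile. With 1 library left out it was at most 0.203. ACD, the telomere protein TPP1, had log2 -0.38 (limma adjusted p = 0.0987).

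Of 22 break signalling and resection genes tested, 2 fell, 0 rose and 20 did not pass in limma. Over all genes tested, 6.23% fell and 3.55% rose. At an unadjusted p under 0.05, 6 were lower and 0 higher (17.4% and 8.9% of all genes tested). The list's median log2 difference was -0.24, beside -0.08 for all genes tested. That median was -0.42 without siMAD2L1 replicate 1 and 0.06 in siMAD2L1 replicate 1 alone (-0.14 and 0.02 for all genes tested). The count that fell was 5 without siMAD2L1 replicate 1 and 1 when any single siControl replicate was dropped. H2AX, the histone variant phosphorylated by ATM at breaks, had 45.1, 54.9 and 59.5 TPM in siMAD2L1, against 88.7, 86.8 and 95.9 TPM in siControl, and fell by 0.76 on the log2 scale (SE 0.113, limma adjusted p = 0.00770, up to 0.0460 with 1 library left out). EXO1, an exonuclease of end resection, fell by 0.73 (SE 0.140, limma adjusted p = 0.0187) but reached adjusted p of 0.0942, 0.0685 and 0.0674 without siControl replicate 1, 2 or 3. ATM did not pass (log2 -0.27, limma adjusted p = 0.559), and its libraries were at 5.75, 2.35 and 3.68 TPM in siMAD2L1 and 5.32, 4.54 and 4.27 TPM in siControl.

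NABP2 has also been tied to repair of oxidised bases with the glycosylase OGG1. Of 12 genes of that repair, 1 fell, 0 rose and 11 did not pass in limma, where 6.23% of all genes fell and 3.55% rose. At an unadjusted p under 0.05, 7 were lower and 0 higher (17.4% and 8.9% of all genes tested). Their median log2 difference was -0.21, beside -0.08 for all genes tested. Without siMAD2L1 replicate 1 the count that fell was 2. PARP1, which senses strand breaks, had 48.5, 40.7 and 44.3 TPM in siMAD2L1, against 73.7, 73.4 and 72.4 TPM in siControl, and fell by 0.71 on the log2 scale (SE 0.0893, limma adjusted p = 0.00457, up to 0.0331 with 1 library left out). OGG1 did not pass (log2 0.04, limma adjusted p = 0.882).

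**Figure D4:**
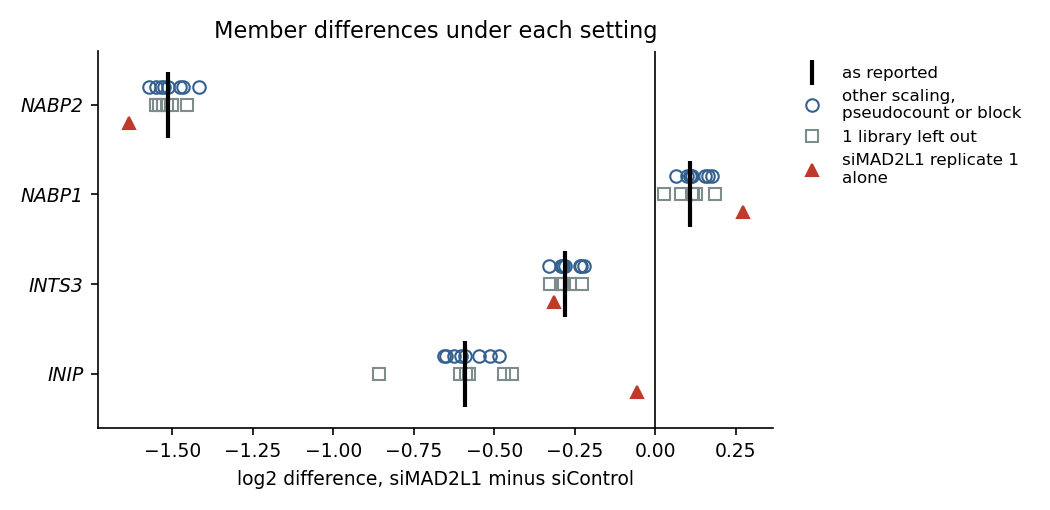
Log2 difference, siMAD2L1 minus siControl, of each member as reported (vertical bar), under 8 other scalings, pseudocounts or a replicate block, which by its construction leaves the value as it is (circles), with 1 library left out (squares) and for siMAD2L1 replicate 1 alone (triangle). NABP2 stays between -1.64 and -1.42 and INTS3 between -0.33 and -0.22, and INIP runs from -0.86 to -0.06. NABP1 stays above 0 in the settings shown, down to 0.03 without siMAD2L1 replicate 1.

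Over all genes, 1446 of 14790 passed (9.78%), 63.7% of them lower in siMAD2L1. The count was 2410, 822 and 631 when siMAD2L1 replicate 1, 2 or 3 was dropped and 356, 548 and 398 for siControl replicate 1, 2 or 3. That share was 52.5% with upper-quartile scaling, 50.5% with quantile normalization, 73.2% in the rescaling that drops mitochondrially encoded and the 20 highest genes, and 44.2% with a transcript-length trend removed. The member differences kept their signs under these scalings, with NABP2 between -1.57 and -1.42.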

How the data were processed

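The 6 libraries of SNU449 cells were grouped by title, and columns were matched to samples by their names. The deposited table holds TPM computed by the authors, with 1 column per library. fastp, HISAT2, DESeq2 1.16.1 and the build hg38 are named, per the submitters' processing notes; the sources used here do not give the counter, the annotation or the strand setting. NABP1 and NABP2 carry an identifier joined to transcript assembly. The members, lists and tests were chosen with earlier results of these data known.

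Values were taken as log2(TPM + 1). Genes with a mean of at least 1 TPM were kept (14790), and limma 3.58.1 (R 4.3.3) with an intensity trend compared siMAD2L1 with siControl, with calls at a Benjamini-Hochberg adjusted p under 0.05. Fold changes on this scale understate the change of low genes. The fit was tested on simulated data. Positions came from GENCODE 29 and promoter windows from RefSeq, which held 3 of the 4 members (INIP was not matched). Figures were drawn with matplotlib 3.10.9. Named genes were the members, MAD2L1 and MAD2L2, the called genes of each list (at most 6, or the 2 most abundant where none was called), neighbouring and overlapping genes, and the 5 nearest profiles per member; ATM, OGG1, RPA subunits and module partners of called Integrator subunits were added after their values were seen. A neighbouring gene is not reported here. MAD2L2 did not pass (log2 -0.07, adjusted p = 0.698). Alternatives changed the pseudocount, filter, scaling, variance trend, threshold or libraries, or added a replicate block.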

Additional observations from a re-analysis of the deposited data

How the results depend on the processing

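The differences of NABP1, NABP2, INTS3 and INIP kept their signs under the pseudocounts, the scalings, the fits that left out a library and siMAD2L1 replicate 1 alone. For NABP1 the value was 0.03 without siMAD2L1 replicate 1. The siMAD2L1 replicate 2, at 96.8% of the siControl mean of NABP1, was not taken alone. Other filters, variance settings, thresholds and the replicate block cannot move these means. Under the scalings and pseudocounts NABP2 lay between -1.57 and -1.42, and with 1 library left out between -1.55 and -1.45. In siMAD2L1 replicate 1 alone, NABP1 had 0.27, NABP2 -1.64 and INIP -0.0587, and the NABP1 share differed by 30.1 percentage points, beside 25.0 as reported.

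The count of genes changed was 727 without a filter, 952 without a variance trend, 868 with the replicate block and 359 at an adjusted p under 0.01 (where MAD2L1, at -2.22, missed the threshold), and ran between 356 and 2410 when single libraries were dropped, the lowest without siControl replicate 1, the highest without siMAD2L1 replicate 1. MAD2L1 then ran from -2.61 to -1.80. Whether same-numbered libraries were handled together is not stated. Their deviations correlated at 0.0190, 0.00898 and 0.0631, which shows no pairing but cannot exclude it.

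Among the lists, Integrator subunits that fell numbered 1 at an adjusted p under 0.01 and 1 to 3 with a library left out. Integrator partners that fell numbered 1 with a filter at 5 TPM, without mitochondrial and the 20 highest genes, over protein-coding genes and with the replicate block, and 0 to 1 with a library left out; 1 rose with upper-quartile scaling and with the length trend removed. Genes of the single-stranded DNA binding list that fell numbered 2 with the filter at 5 TPM, 3 without mitochondrial and the 20 highest genes and 0 to 1 with a library left out. Oxidised base repair genes that fell numbered 2 in the first 2 of these settings and 1 to 2 with a library left out. Break signalling and resection genes that fell numbered 4 without mitochondrial and the 20 highest genes, 1 at an adjusted p under 0.01 and 1 to 5 with a library left out.

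Some differences that never passed turned sign. KIAA1958 was at 0.0105 with upper-quartile scaling, 0.121 with quantile normalization, 0.0314 with the length trend removed and -0.27 to 0.13 with a library left out. PPP2R1A was at -0.0603 with quantile normalization, -0.0264 without mitochondrial and the 20 highest genes and -0.0408 to 0.0970 with a library left out, and MAD2L2 at 0.0237 with the length trend removed and -0.147 to 0.0121 with a library left out. The cause of these changes was not tested. Depth is unknown, so counting error could not be given.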
